A study of Mus musculus with 2 samples.

Results

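The 9 genes described here encode bone morphogenetic protein (BMP) ligands and proteins that hold them in check: the ligands Bmp2, Bmp4, Bmp5, Bmp7 and Gdf10, the secreted antagonists Nog, Grem1 and Sostdc1, and the membrane inhibitor Bambi. They were taken by symbol from the 31054 features of the count matrices, and all 9 were found. The 9 were chosen by their UMI counts and levels in these same libraries, so every value below is a description and none is a test. BMPs such as Bmp2, Bmp4, Bmp5 and Bmp7 are secreted dimers that bring type I and type II receptor kinases together. The receptors then phosphorylate SMAD1, SMAD5 and SMAD9, which enter the nucleus with SMAD4 and act on target genes such as the Id family. Whether Gdf10 signals in this way is not addressed here. Noggin, gremlin 1 and Sostdc1 bind the ligands outside the cell, and Bambi is a receptor-like protein that lacks a kinase domain and dampens signalling. In the mouse bladder, stromal Bmp4 and Bmp5 are known as products of fibroblasts that receive Hedgehog signal from the urothelium and that act back on urothelial differentiation.

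Cells came from the bladder of 1 male mouse aged 25 months with the genotype p16-CreERT2/R26-LSL-tdTomato, in which Cre driven from the p16 locus (Cdkn2a) turns on the red reporter after tamoxifen. Tamoxifen was injected on 5 days in a row and the bladder was taken 2 weeks later. Live cells without the leukocyte antigen CD45 were sorted by red fluorescence into a Tom+ library (Tomato-positive cells) and a Tom- library (Tomato-negative cells), so both groups share the animal, the genotype and the tamoxifen, and the mark records p16 promoter activity during the tamoxifen window rather than at harvest. With 1 library per group there is no replicate check, no p-value is given, and each 95% interval covers counting error only.

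The Tom+ library held 2783 barcodes and 34455896 UMIs (unique molecular identifiers, each counted as 1 RNA molecule), and the Tom- library held 13551 barcodes and 197232860 UMIs. After filters and removal of called doublets, 1883 Tom+ cells (median 11601 UMIs) and 9905 Tom- cells (median 12772 UMIs) were used. tdTomato stood at 1238 CPM (a gene's UMIs scaled to a total of 1000000 UMIs) in Tom+ cells, against 35.5 CPM in Tom- cells, and Cdkn2a stood at 3.59 CPM in Tom+ cells, against 4.18 CPM in Tom- cells. In all, 966 barcodes occurred in both libraries, among them 346 of the used Tom+ cells (18.4%) and 660 of the used Tom- cells (6.66%). Some of the class ratios, and some of the state and cluster levels, that they touch are given with and without them. For states and clusters this was added after seeing the data. Ratios in umbrella and in basal or intermediate urothelial-like cells are given only with them. There 71 of 423 and 20 of 108 Tom+ cells carried shared barcodes. The label "fibroblast-like" was held by 684 Tom+ and 4800 Tom- cells in 8 clusters, each with 9 or 10 of the 10 fibroblast markers detected in at least 25% of its cells, and those markers summed to 36167 CPM in Tom+, against 37184 CPM in Tom- cells of the class. One further cluster, led by Cilp and Sfrp4, scored best for fibroblast markers but had a pericyte marker, Abcc9, among its 10 leading genes and was left without a name. A second unnamed cluster that scored best for fibroblast markers, led by Coch and Rorb, held 52 Tom+ and 115 Tom- cells, was shallow (median 1228 UMIs in Tom+, against 2925 in Tom-) and had none of those markers among its 10 leading genes, and all 52 Tom+ and 98 of the Tom- cells carried shared barcodes. All clusters and states were built without the BMP pathway genes, tdTomato and Cdkn2a.

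The 250 bases before RefSeq's start of 3 stromal ligand genes are shown because these genes differ in where they lie among the fibroblast-like cells: Bmp4 was found in most states, and Bmp5 and Gdf10 were each high in a few. The sequences are RefSeq's on GRCm38.p6, each written 5′ to 3′ on the gene's own strand, with matches to the GC box GGGCGG on either strand in capitals. They lie at chr14:46390670-46390919 on the minus strand (Bmp4), chr9:75775115-75775364 on the plus strand (Bmp5) and chr14:33923337-33923586 on the plus strand (Gdf10). The last base of the Bmp5 stretch is the first base of the gene in the annotation used for gene positions.
Bmp4: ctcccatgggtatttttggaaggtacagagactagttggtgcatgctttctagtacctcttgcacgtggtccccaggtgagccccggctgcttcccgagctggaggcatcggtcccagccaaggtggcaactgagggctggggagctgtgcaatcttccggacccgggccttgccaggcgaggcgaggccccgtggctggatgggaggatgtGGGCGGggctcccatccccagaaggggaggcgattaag
Bmp5: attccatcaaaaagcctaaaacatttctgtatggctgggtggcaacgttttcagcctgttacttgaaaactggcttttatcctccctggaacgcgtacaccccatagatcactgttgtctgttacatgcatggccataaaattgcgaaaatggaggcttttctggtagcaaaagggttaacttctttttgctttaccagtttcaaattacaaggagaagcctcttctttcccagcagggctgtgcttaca
Gdf10: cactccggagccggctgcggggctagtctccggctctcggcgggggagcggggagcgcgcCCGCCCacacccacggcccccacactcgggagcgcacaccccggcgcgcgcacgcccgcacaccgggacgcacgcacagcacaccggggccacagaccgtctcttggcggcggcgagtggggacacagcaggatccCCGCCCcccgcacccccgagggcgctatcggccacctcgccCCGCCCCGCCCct
The Bmp5 stretch had a GC content of 42.8%, against 63.2% for Bmp4 and 78.8% for Gdf10, and a median of 52.4% over the 32851 promoters of the table. The GC box was found 4 times before Gdf10 (overlapping matches counted), 1 time before Bmp4 and 0 times before Bmp5, and 32.7% of all promoters in the table held it. The E-box CANNTG was found 3 times before Bmp4 and 0 times before Bmp5 and Gdf10, and 66.2% of all promoters held it. TATAAA (12.4% of all promoters) and GGCGCC, a GC-rich site that BMP SMADs can bind (9.59%), were found in none of the 3 stretches. Matches were sought on both strands and say only that these letters lie in the window.

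Most members stood highest in 1 or 2 cell classes. Among the 6 classes compared, Bmp2 and Bmp7 stood highest in urothelial-like cells, and Bmp4 and Bmp5 in fibroblast-like cells. Gdf10 was found in fibroblast-like and lymphatic endothelial-like cells, but 55.7% of its UMIs in each library lay in the unnamed Cilp Sfrp4 cluster. Of the inhibitors, Bambi was broad, Sostdc1 lay in fibroblast-like and Schwann-like cells, and Nog and Grem1 were rare. Levels are a gene's share of the UMIs summed over the cells of a class, scaled to CPM. Values of different genes are not set against each other, since the reads come from the 3′ ends of transcripts.

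Bmp2 (ENSMUSG00000027358, chr2:133552159-133562885, plus strand), a ligand best known for bone and heart development, stood highest in umbrella urothelial-like cells, which face the lumen, at 101 CPM in Tom+ (95.7 to 106), against 116 CPM in Tom- (114 to 119). It was next in basal or intermediate urothelial-like cells, at 54.3 CPM in Tom+, against 56.9 CPM in Tom-. Fibroblast-like cells followed at 21.1 CPM in Tom+ (17.8 to 24.9), against 40.7 CPM in Tom- (39.0 to 42.3). Both libraries therefore put umbrella cells first, and the intervals of these 3 classes did not overlap within a library. After thinning each cell to 2000 UMIs, 15.3% of Tom+ umbrella cells and 19.3% of Tom- ones kept a Bmp2 UMI, beside 0% of 78 Tom+ and 0.556% of 180 Tom- lymphatic endothelial-like cells, a class at or near 0 for the gene. Before thinning, the umbrella shares were 79.9% in Tom+ and 81.8% in Tom- where the median cell had 37924 and 38482 UMIs, and the lymphatic shares were 0% and 1.52% at 4243 and 5812 UMIs.

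Bmp7 (ENSMUSG00000008999, chr2:172868012-172940321, minus strand), a ligand required for kidney and eye development, also stood highest in the urothelial-like classes among the 6 classes compared. Umbrella urothelial-like cells had 33.3 CPM in Tom+ (30.5 to 36.2), against 32.6 CPM in Tom- (31.2 to 34.2), and basal or intermediate cells had 29.3 CPM in Tom+ (23.7 to 35.7), against 31.2 CPM in Tom- (28.5 to 34.1). These 2 layers did not differ beyond their counting intervals in either library. Fibroblast-like cells stood at 2.71 CPM in Tom+ from 18 UMIs and at 8.67 CPM in Tom- from 512 UMIs. Under the rule used here for a measured gene (10 CPM in 1 library and 20 UMIs in all), Bmp7 was not measured in that class.

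Bmp4 (ENSMUSG00000021835, chr14:46383520-46390669, minus strand), a ligand with wide roles in mesoderm and organ budding, stood highest in fibroblast-like cells at 275 CPM in Tom+ (262 to 288), against 349 CPM in Tom- (344 to 354). That class held 75.8% of the gene's UMIs in used Tom+ cells and 88.2% in used Tom- cells. Endothelial-like cells had 80.7 CPM in Tom+ (66.9 to 96.5), against 70.3 CPM in Tom- (63.0 to 78.1), and mesothelial-like cells had 67.6 CPM in Tom+, against 66.9 CPM in Tom-, so these 2 classes did not differ beyond counting error within a library. Within the endothelial-like class, the Selp Lrg1 cluster stood at 97.3 CPM in Tom+, against 107 CPM in Tom-, and the Esm1 Rgcc cluster at 31.9 CPM in Tom+, against 40.1 CPM in Tom-. Umbrella urothelial-like cells were low at 3.36 CPM in Tom+, against 4.95 CPM in Tom-. The 69 erythroid-like cells, all Tom-, stood at 59.2 CPM. The unnamed Coch Rorb cluster had 303 CPM in Tom+ from 20 UMIs, against 209 CPM in Tom- from 86 UMIs, with no Tom+ cell and 17 Tom- cells (309 CPM) left without shared barcodes. The gene body overlaps 2 annotated transcripts on the other strand (Gm15217 and Gm15222), and whether counting used strand is not given in the sources used here.

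Bmp5 (ENSMUSG00000032179, chr9:75775364-75900310, plus strand), a ligand known in mice as the gene of the short ear mutation, was nearly confined to fibroblast-like cells, which held 95.2% of its UMIs in used Tom+ cells and 96.8% in used Tom- cells. The class stood at 36.0 CPM in Tom+ (31.6 to 40.9), against 126 CPM in Tom- (124 to 129). Umbrella urothelial-like cells had 0.25 CPM in Tom+, against 0.63 CPM in Tom-, and endothelial-like cells had 0 UMIs in Tom+ (a floor of 3 counts corresponds to 2.02 CPM) and 3.28 CPM in Tom-. After thinning, 4.09% of 636 Tom+ cells in the class kept a Bmp5 UMI, against 15.4% of 4675 Tom- cells, beside 0% of 418 Tom+ and 0.285% of 1403 Tom- umbrella cells. Without thinning, 9.65% of Tom+ cells of the class (median 8497 UMIs) and 34.4% of Tom- ones (median 11913 UMIs) had a UMI, against 0.946% and 2.21% of the deeper umbrella cells. The 69 erythroid-like cells, all Tom-, stood at 27.8 CPM (20.3 to 37.2) from 45 UMIs. The 46 Schwann-like cells, also all Tom-, stood at 17.4 CPM from 5 UMIs. Gm26903 and Gm47723 overlap the gene, the second on the same strand.

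Gdf10 (ENSMUSG00000021943, chr14:33923587-33937983, plus strand), also called BMP3B, a member of the BMP3 branch of the family, was found in 2 named classes. Fibroblast-like cells had 40.6 CPM in Tom+ (35.9 to 45.7), against 27.9 CPM in Tom- (26.5 to 29.2). Lymphatic endothelial-like cells had 60.1 CPM in Tom+ (39.6 to 87.4) from 27 UMIs, against 60.6 CPM in Tom- (47.5 to 76.2) from 73 UMIs. The unnamed Cilp Sfrp4 cluster stood at 335 CPM in Tom+ (303 to 369), against 365 CPM in Tom- (350 to 380), and it alone held 55.7% of all Gdf10 UMIs in used cells of each library. In this cluster 37 of 133 Tom+ and 94 of 589 Tom- cells carried shared barcodes, and without them the level was 408 CPM in Tom+ (366 to 453), against 370 CPM in Tom- (355 to 386), so the order of the libraries turned. The Coch Rorb cluster had 272 CPM of Gdf10 in Tom+ from 18 UMIs, against 141 CPM in Tom- from 58 UMIs, and its Tom- cells without shared barcodes had 27.3 CPM from 3 UMIs. Blood endothelial-like cells had 0 UMIs in Tom+ and 2.25 CPM in Tom-.

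**Figure D1:**
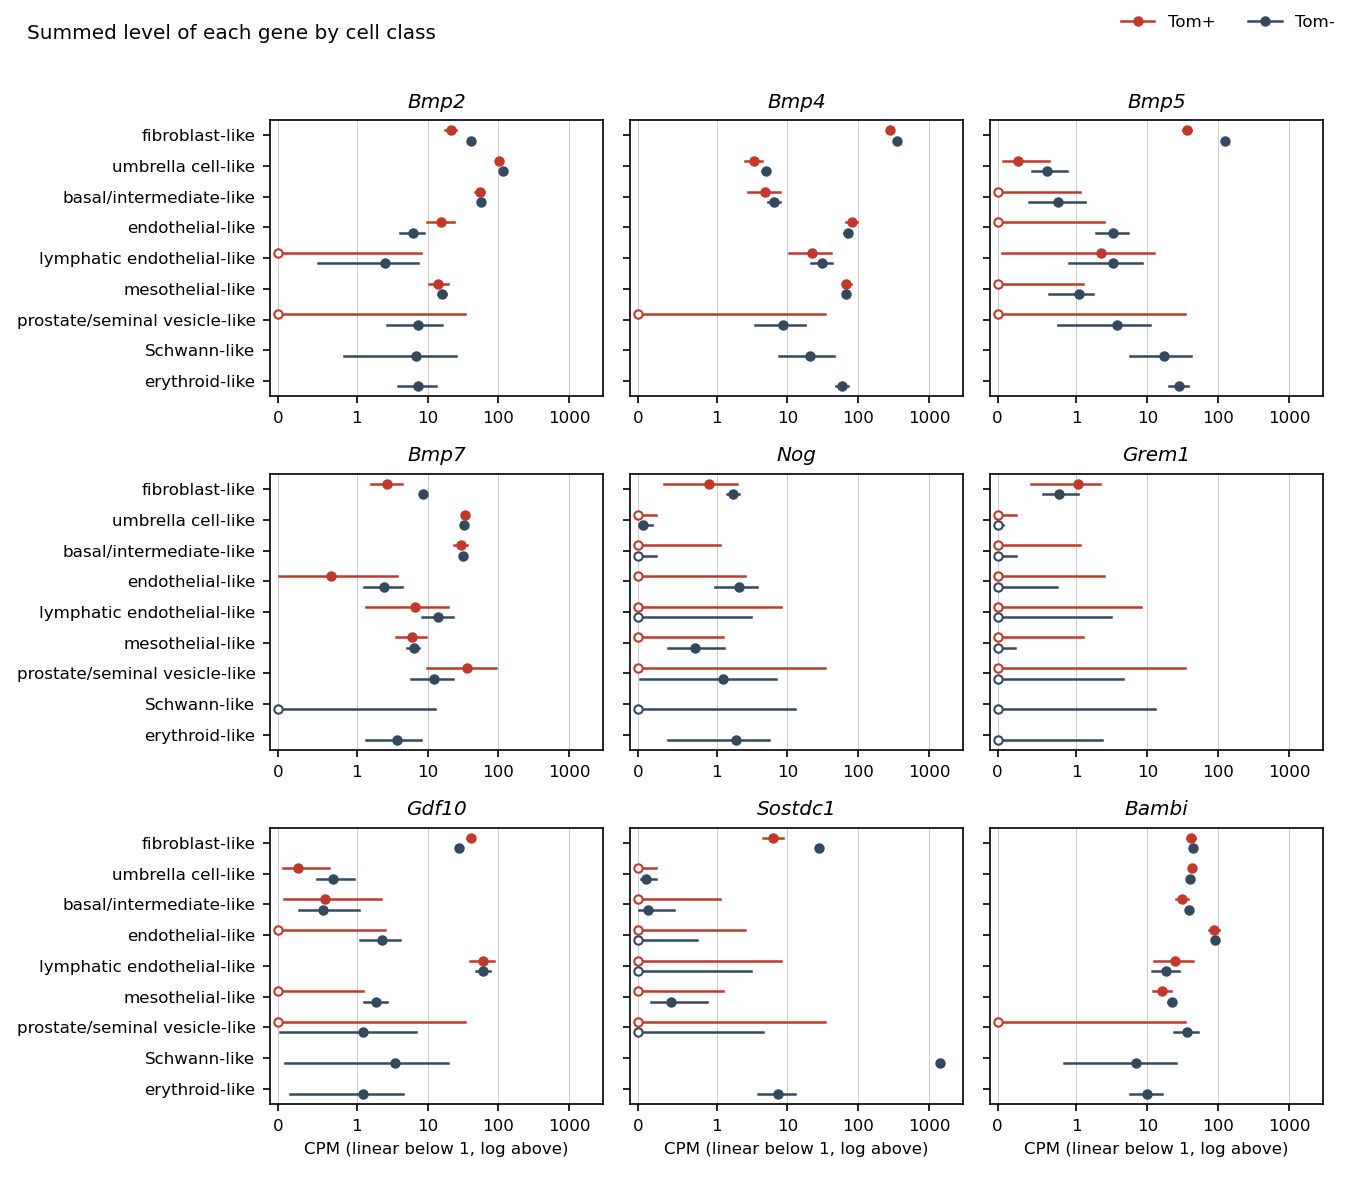
Level of each of the 9 genes in 9 cell classes, in CPM of summed UMIs on an axis that is linear below 1 and logarithmic above, for Tom+ (red) and Tom- (dark) cells; lines are exact Poisson 95% intervals and open points mark 0 UMIs. Bmp2 and Bmp7 peak in or near the urothelial-like classes, Bmp4 and Bmp5 in fibroblast-like cells, and Sostdc1 in the 46 Schwann-like cells, which like the erythroid-like cells are all Tom-.

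Among the inhibitors, Bambi (ENSMUSG00000024232) was measured in all 6 classes compared. Endothelial-like cells were highest at 87.5 CPM in Tom+ (73.1 to 104), against 88.5 CPM in Tom- (80.4 to 97.3). Fibroblast-like cells had 41.3 CPM in Tom+, against 43.7 CPM in Tom-, umbrella cells 42.0 CPM in Tom+, against 39.9 CPM in Tom-, and basal or intermediate cells 31.1 CPM in Tom+, against 38.2 CPM in Tom-. Lymphatic endothelial-like and mesothelial-like cells were lower, at 24.5 and 16.2 CPM in Tom+ and at 18.3 and 22.0 CPM in Tom-.

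Sostdc1 (ENSMUSG00000036169, chr12:36314139-36318452, plus strand), a secreted protein that binds BMPs and also acts on Wnt signalling, stood at 1418 CPM in the 46 Tom- Schwann-like cells, from 407 UMIs in 40 of them. In Tom+ 0 of 1883 cells fell in that class, which allows a share of up to 0.196%. Fibroblast-like cells had 6.33 CPM in Tom+ (4.56 to 8.56) from 42 UMIs, against 27.6 CPM in Tom- (26.3 to 29.0) from 1629 UMIs. All 42 Tom+ UMIs lay in fibroblast-like cells, against 78.1% of the Tom- UMIs. Schwann markers summed to 2.41 CPM in Tom+, against 4.57 CPM in Tom- fibroblast-like cells, with 3 of 7 and 1 of 7 markers at 0.

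Grem1 (ENSMUSG00000074934, chr2:113746164-113758646, minus strand), gremlin 1, was seen only in fibroblast-like cells among used cells, with 7 UMIs in 3 Tom+ cells and 46 UMIs in 22 Tom- cells. Its Tom- UMIs fell in the Actg2 Unc13c state (31 UMIs), the Cd74 Ptger3 state (13 UMIs) and the Ednrb Paqr6 state (2 UMIs), and its Tom+ UMIs in the first 2 of these (2 and 5 UMIs). At 1.06 CPM in Tom+, against 0.78 CPM in Tom-, no difference between the libraries was detectable at this depth, with a ratio of 1.35 (0.52 to 3.02).

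Nog (ENSMUSG00000048616, chr11:89300638-89302332, minus strand), noggin, had 15 UMIs in 11 Tom+ cells and 346 UMIs in 112 Tom- cells. Few cells carried most of it. The Cilp Sfrp4 cluster held 9 of the Tom+ UMIs and 208 of the Tom- UMIs, and in Tom- these lay in 21 of 589 cells, with 46, 34, 33, 31 and 19 UMIs in the top 5. The 9 Tom- cells with at least 5 UMIs held 192 of the 208. In Tom+, 5 of 133 cells of this cluster had a Nog UMI, with 5 UMIs in the highest of them and 1 in each of the others. The share of cells with a UMI was therefore close, at 3.76% in Tom+ and 3.57% in Tom-, while the CPM was 7.48 in Tom+ (3.42 to 14.2) and 32.2 in Tom- (28.0 to 36.9). Without shared barcodes these were 4.77 CPM in Tom+ from 4 UMIs, against 33.4 CPM in Tom- from 208 UMIs. In umbrella urothelial-like cells 0 of 423 Tom+ and 4 of 1494 Tom- cells had a UMI. The second place with Nog was the Tlr12 Nell2 state of fibroblast-like cells, at 21.5 CPM in Tom+ from 3 UMIs, against 26.9 CPM in Tom- (21.3 to 33.5) from 80 UMIs in 51 of 151 cells, none with more than 4.

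**Figure D2:**
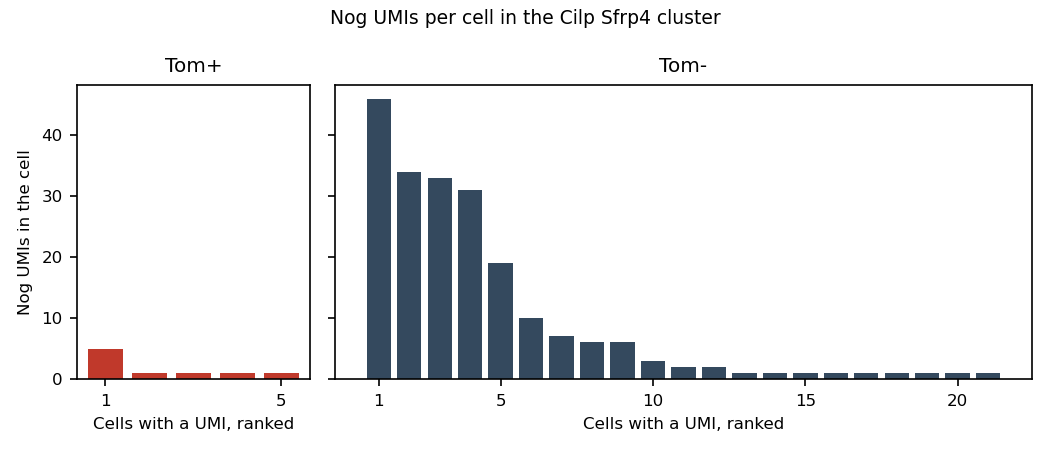
Nog UMIs in each cell with at least 1, ranked within the library, for the unnamed Cilp Sfrp4 cluster in Tom+ (left, 5 of 133 cells) and Tom- (right, 21 of 589 cells). In Tom- a few cells reach 19 to 46 UMIs and 9 cells have 1 UMI each, while the highest Tom+ cell has 5.

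Fibroblast-like cells were divided into 9 states, named by 2 leading genes each. The ligands split them. Bmp5 followed a steep order that both libraries showed. The Tlr12 Nell2 state was highest, at 658 CPM in Tom+ (530 to 807) from 8 cells, against 599 CPM in Tom- (572 to 628) from 151 cells. In Tom+ it was 554 CPM on the 6 cells without shared barcodes. The Actg2 Unc13c state came next, at 342 CPM in Tom+ (272 to 425) from 21 cells, against 340 CPM in Tom- (330 to 350) from 915 cells. The Ednrb Paqr6 state followed, at 97.4 CPM in Tom+ (72.7 to 128), against 100 CPM in Tom- (94.4 to 107). The intervals of these 3 states did not overlap within either library. In the Bglap2 Ptgfr state Bmp5 was 7.25 CPM in Tom+, against 12.6 CPM in Tom-. In the Dner Kcnn3, Olfml2a Ackr4, Cd74 Ptger3 and Sult1e1 Akr1c18 states it was at most 1.83 CPM in Tom+ and at most 3.18 CPM in Tom-, and the order among these 4 is not resolved. The last 2 of them had 0 UMIs in Tom+, on 63 and 16 cells, which allows up to 4.02 and 14.6 CPM. In Tom+ the place of the Sult1e1 Akr1c18 state against the Bglap2 Ptgfr state is therefore not resolved. The shallow Sprr1a Krt18 state is left out of this order. Its 66 Tom- cells had 226 CPM (163 to 305) from 42 UMIs, between the Actg2 Unc13c and Ednrb Paqr6 states, and its 1 Tom+ cell had 0 UMIs.

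Bmp2 in stroma had a similar top. The Tlr12 Nell2 state had 143 CPM in Tom+ (87.4 to 221), against 154 CPM in Tom- (140 to 169), and the Actg2 Unc13c state had 75.1 CPM in Tom+ (44.5 to 119), against 76.3 CPM in Tom- (71.6 to 81.2). Those Tom- states held 19.1% and 41.4% of the class's Bmp2 UMIs. In Tom- the Tlr12 Nell2 state had a Bmp2 level above that of the umbrella cells, while in Tom+ the intervals of this state and of umbrella cells overlapped. Bmp7 stood at 28.6 CPM in Tom+ from 4 UMIs and at 59.5 CPM in Tom- (51.1 to 69.0) in the Tlr12 Nell2 state, and in the Actg2 Unc13c state at 16.7 CPM in Tom+, against 13.6 CPM in Tom-. The Tom- Bmp7 level of the Tlr12 Nell2 state lay above that of Tom- umbrella cells (32.6 CPM, 31.2 to 34.2). In Tom+ the Bmp7 intervals of this state and of umbrella cells overlapped. The Tlr12 Nell2 state was thus the fibroblast-like state with the highest Bmp2, Bmp5, Bmp7 and Nog in Tom-, and in Tom+ it was so on 8 cells, 2 of which carried barcodes found in both libraries (the Sprr1a Krt18 state, with 1 Tom+ cell, apart). When the states were scored against the marker lists among themselves, this state scored best for smooth muscle, with 5 of 8 markers detected in at least 25% of its cells, and the Cd74 Ptger3 state scored best for mesothelium, also with 5 of 8.

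Bmp4 was spread more evenly. The Ednrb Paqr6 state was highest in both libraries, at 530 CPM in Tom+ (470 to 595), against 548 CPM in Tom- (534 to 563), with the Tlr12 Nell2 state at 465 CPM in Tom+ (359 to 592), against 518 CPM in Tom- (492 to 545). Without shared barcodes the Tom+ order of this pair turned, at 511 CPM in the Ednrb Paqr6 state and 608 CPM in the Tlr12 Nell2 state, with overlapping intervals. The Bglap2 Ptgfr state had 408 CPM in Tom+, against 437 CPM in Tom-, the Dner Kcnn3 state 332 CPM in Tom+, against 333 CPM in Tom-, and the Actg2 Unc13c state 305 CPM in Tom+ (239 to 383), against 434 CPM in Tom- (423 to 445). The Olfml2a Ackr4 state had 91.4 CPM in Tom+, against 91.1 CPM in Tom-, and the Cd74 Ptger3 state 68.6 CPM in Tom+, against 60.2 CPM in Tom-. In the Sult1e1 Akr1c18 state it was 39.7 CPM in Tom+ from 10 UMIs, against 18.9 CPM in Tom-. Without shared barcodes this turned to 16.7 CPM in Tom+ from 2 UMIs, against 19.1 CPM in Tom-. In Tom- the Bglap2 Ptgfr and Actg2 Unc13c states did not differ beyond their intervals.

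Gdf10 had another order. It stood at 397 CPM in Tom+ (323 to 482), against 302 CPM in Tom- (283 to 321) in the Sult1e1 Akr1c18 state, where Bmp4 was lowest, and in Tom+ 1 of 16 cells held 41 of the 100 UMIs. In this state 7 of 16 Tom+ and 10 of 201 Tom- cells carried shared barcodes, and without them the level was 426 CPM in Tom+ (317 to 560), against 302 CPM in Tom- (283 to 321). The Dner Kcnn3 state had 58.7 CPM in Tom+ (49.3 to 69.4), against 43.9 CPM in Tom- (39.4 to 48.8), and the Olfml2a Ackr4 state 25.6 CPM in Tom+, against 27.2 CPM in Tom-. In the Tlr12 Nell2, Actg2 Unc13c and Ednrb Paqr6 states, Gdf10 had 0 UMIs in Tom+ and between 1.08 and 1.35 CPM in Tom-. These Tom+ zeros, on 8, 21 and 55 cells, allow up to 26.4, 15.4 and 6.91 CPM by their 95% intervals. Cell by cell, after thinning to 2000 UMIs, Bmp5 was seen in 0 of 34 Tom+ cells with a Gdf10 UMI and in 4 of 171 such Tom- cells, beside 26 of 602 Tom+ and 717 of 4504 Tom- cells without one. In Tom+ the exact 95% interval with Gdf10 (0% to 10.3%) includes the 4.32% seen without it, so no difference was detectable there. In Tom- the shares were 2.34% (0.641 to 5.88) with Gdf10, against 15.9% (14.9 to 17.0) without it. A Bmp4 UMI was found in 20 of 26 Tom+ cells with Bmp5 (76.9%, exact 95% interval 56.4 to 91.0) and 429 of 721 Tom- cells with Bmp5 (59.5%, 55.8 to 63.1). Among cells without Bmp5 it was found in 35.7% in Tom+ and 42.9% in Tom-.

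Sostdc1 was found mainly in 4 states, those that were also highest for Bmp4 in Tom-. It stood at 22.5 CPM in Tom+ (11.6 to 39.3), against 56.4 CPM in Tom- (51.9 to 61.1) in the Ednrb Paqr6 state, at 45.9 CPM in Tom+, against 53.1 CPM in Tom- in the Actg2 Unc13c state, at 35.8 CPM in Tom+ from 5 UMIs (54.3 CPM from 5 UMIs without shared barcodes), against 66.9 CPM in Tom- in the Tlr12 Nell2 state, and at 12.7 CPM in Tom+, against 15.2 CPM in Tom- in the Bglap2 Ptgfr state. In the Dner Kcnn3, Olfml2a Ackr4, Cd74 Ptger3 and Sult1e1 Akr1c18 states it was 0 in Tom+ and at most 0.64 CPM in Tom-. The Tom+ zeros allow up to 1.57, 3.37, 4.02 and 14.6 CPM in these states, in that order. Bambi peaked in the Cd74 Ptger3 state, at 138 CPM in Tom+ (115 to 165), against 121 CPM in Tom- (110 to 133), where 46.4% of the class's Tom+ Bambi UMIs and 16.2% of its Tom- UMIs lay. The other states had between 11.9 and 41.7 CPM in Tom+ and between 19.2 and 65.4 CPM in Tom- (without the Sprr1a Krt18 state, whose 1 Tom+ and 66 Tom- cells are shallow).

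**Figure D3:**
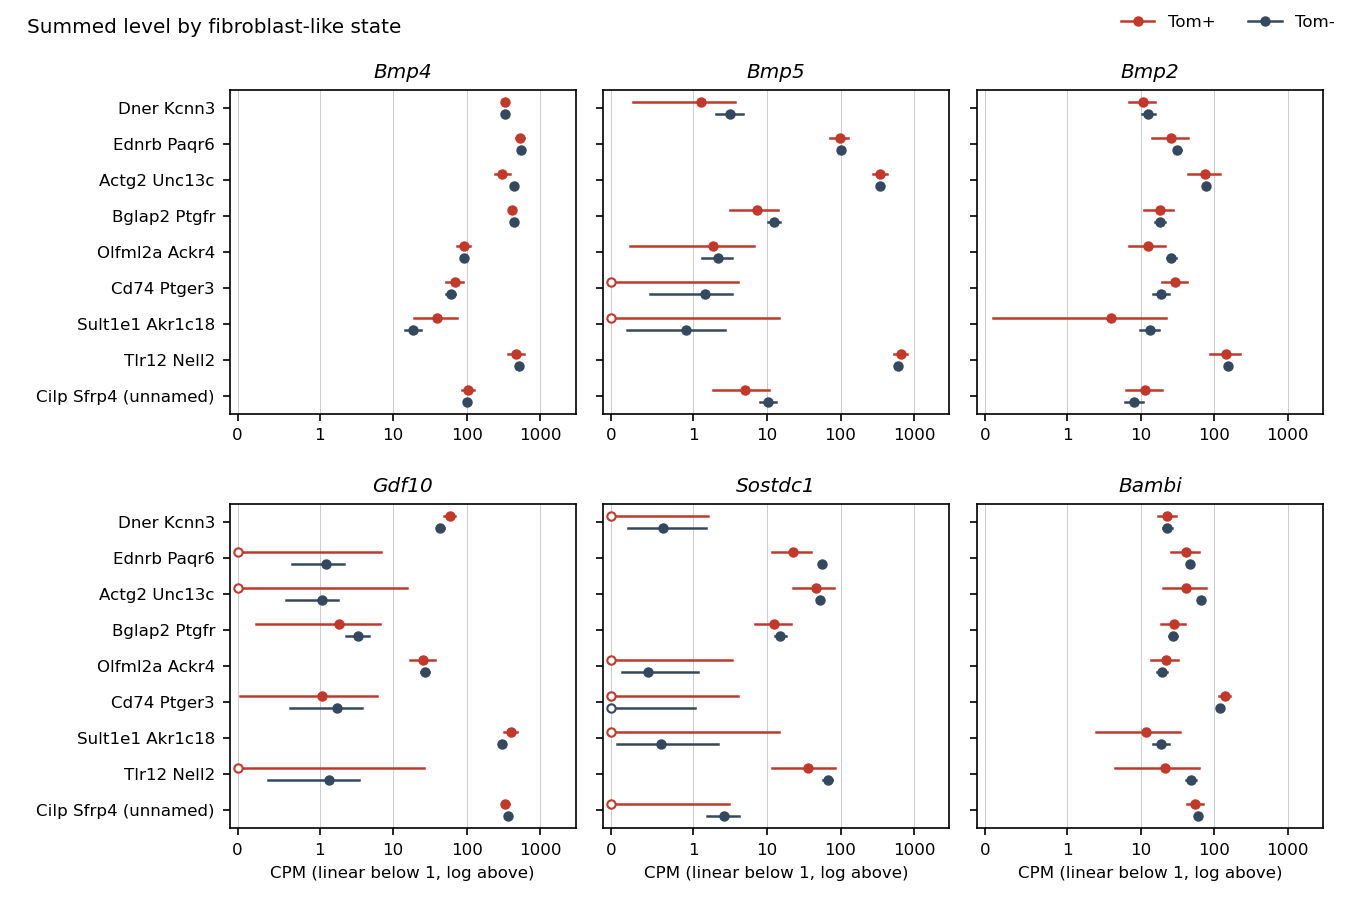
Level of 6 genes, in CPM on an axis linear below 1 and logarithmic above, in 8 fibroblast-like states and in the unnamed Cilp Sfrp4 cluster, for Tom+ (red) and Tom- (dark) cells, with exact Poisson 95% intervals and open points at 0 UMIs. Bmp5 stands at 658 CPM in Tom+ cells, against 599 CPM in Tom- cells, of the Tlr12 Nell2 state and near 0 in several others in both libraries, and the 2 groups highest for Gdf10 have at most 10.4 CPM of Bmp5.

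The comparison of the sorted libraries asks how BMP genes differ between cells with and without the p16 mark. In fibroblast-like cells 3 of the 6 measured members were at least 1.5 times lower in Tom+ (Bmp2, Bmp5 and Sostdc1), against 2.72% of the 9003 genes measured in the class, and 0 were at least 1.5 times higher, against 2.11%. These calls are by size, on log2 ratios after adding 1 CPM, and since the members were chosen with such values known the counts are given beside the background and nothing is read from them. The median log2 ratio of the 6 was -0.63, against -0.01 over all measured genes. Fewer cells of a state and less RNA of the gene per cell are not told apart by a class level.

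Bmp5 had the widest gap among the measured ligands of the 9, with a ratio of Tom+ to Tom- of 0.285 (0.249 to 0.324), or 3.51 times lower in Tom+. The Tom+ level rested on few cells, since 5 of 684 cells held 79 of its 239 UMIs. Without the barcodes found in both libraries the log2 ratio was -2.04, in place of -1.78 with them, and with each cell classed one by one from its markers it was -1.98. Bmp2 had a ratio of 0.519 (0.435 to 0.616), which is -0.91 in log2 and -0.90 without the shared barcodes. It moved to -0.43 without the clusters led by Car3 and to -0.57 with doublets kept, both short of 1.5 times. Sostdc1 had a ratio of 0.229 (0.165 to 0.312), with log2 ratios of -1.96 and, without the shared barcodes, -1.93. Bmp4 had a ratio of 0.788 (0.750 to 0.826), outside counting error but short of 1.5 times.

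Gdf10 went the other way, with a ratio of 1.46 (1.27 to 1.66). On the log2 scale this was 0.53, and 0.37 without the shared barcodes. Leaving out the 1 cell with most Gdf10 UMIs in each library, a choice made after seeing the data, gave 0.33. Over 16 alternatives the Gdf10 value lay between 0.20 and 0.58, and 7 of them moved beyond its counting interval. Over all used cells of each library, Gdf10 was lower in Tom+, with a ratio of 0.849 (0.783 to 0.919). Bambi had a ratio of 0.945 (0.831 to 1.07), an interval that includes no difference. Its log2 ratio was -0.08, and it turned to 0.02 with doublets kept, to 0.05 with BMP genes kept for clustering and to 0.16 without the clusters led by Car3. Nog had a ratio of 0.529 (0.190 to 1.19) from 6 Tom+ UMIs, and its difference was not detectable at this depth. Erythroid markers summed to 45.7 CPM in Tom+, against 455 CPM in Tom- cells of the class, and smooth muscle markers to 336 CPM in Tom+, against 588 CPM in Tom-. Their part in these results was not tested.

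The states were not in equal parts in the 2 libraries. In Tom+ the Dner Kcnn3 state accounted for 47.2% of the class (43.4 to 51.0), against 19.9% in Tom- (18.7 to 21.0). The Actg2 Unc13c state accounted for 3.07% in Tom+ (1.91 to 4.65), against 19.1% in Tom- (17.96 to 20.2). The Ednrb Paqr6 share was 8.04% in Tom+ (6.11 to 10.3), against 21.1% in Tom- (19.96 to 22.3), and the Tlr12 Nell2 share was 1.17% in Tom+ (0.51 to 2.29), against 3.15% in Tom- (2.67 to 3.68). These 3 states, the ones highest for Bmp5 when the Sprr1a Krt18 state is set apart, were thus all rarer in Tom+, and these are shares that a sort on tdTomato can set. In the opposite direction, the Cd74 Ptger3 state, highest for Bambi, held 9.21% of the class in Tom+ and 4.02% in Tom-.

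Weighting the Tom- state levels by the Tom+ shares of UMIs gave a Tom- Bmp5 level of 36.9 CPM. The measured levels were 36.0 CPM in Tom+, against 126 CPM in Tom-, so the reweighted level lay within 1 CPM of the Tom+ one. For Bmp4 the level at the Tom+ mix was 285 CPM, beside measured levels of 275 CPM (Tom+) and 349 CPM (Tom-). For Bmp2 it was 23.7 CPM, beside measured levels of 21.1 CPM (Tom+) and 40.7 CPM (Tom-). For Sostdc1 it was 10.7 CPM, between the Tom+ level of 6.33 CPM and the Tom- level of 27.6 CPM. For Gdf10 it was 32.5 CPM, between the Tom+ level of 40.6 CPM and the Tom- level of 27.9 CPM. After this weighting a log2 ratio of -0.68 was left for Sostdc1 and of 0.31 for Gdf10.

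**Figure D4:**
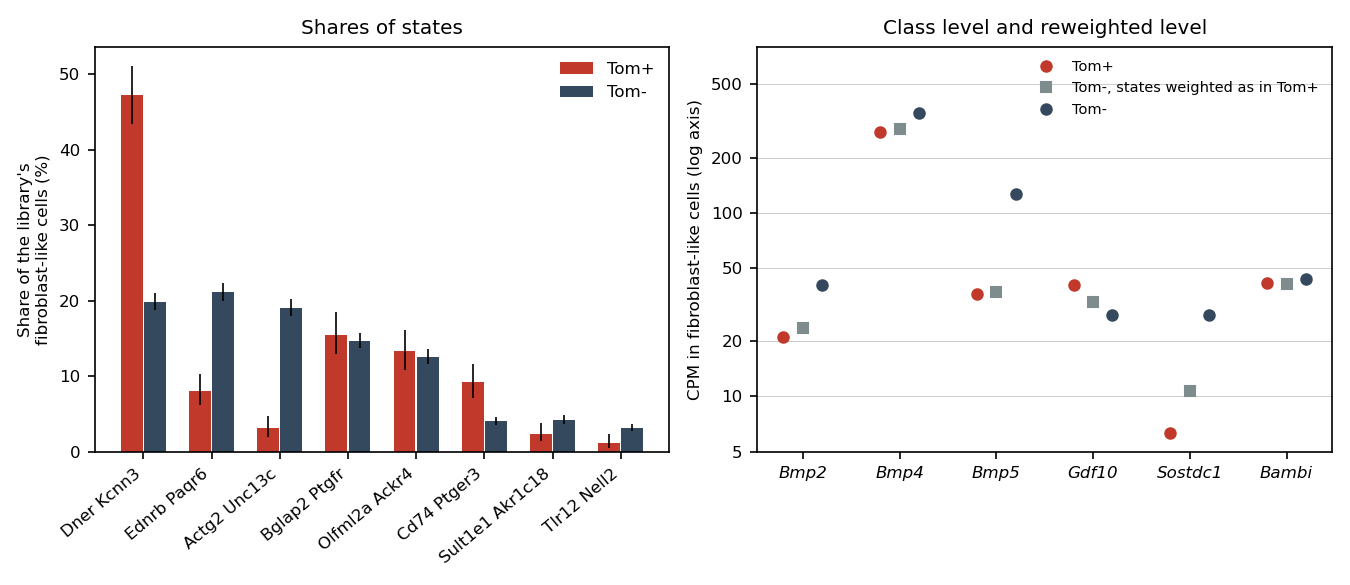
Left, share of each library's fibroblast-like cells in 8 states, in percent with exact binomial 95% intervals, for Tom+ (red) and Tom- (dark). Right, level of 6 genes in the class on a log axis, in Tom+, in Tom- with its states weighted as in Tom+, and in Tom-; the weighted Bmp5 value of 36.9 CPM lies beside the Tom+ value of 36.0 CPM and apart from the Tom- value of 126 CPM.

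Within states the libraries were compared where each had at least 30 cells, which leaves out the Actg2 Unc13c and Tlr12 Nell2 states among others. In the 5 states that met this, the log2 ratio of Bmp4 lay between -0.10 and 0.19, with an equal-weight mean of 0.01. The Actg2 Unc13c state, with 27.4% of the class's Tom- Bmp4 UMIs, is not in this range. Its Bmp4 level, given above, was lower in Tom+ on 21 cells, with intervals that did not overlap. In the Dner Kcnn3 state Bmp4 had a ratio of 0.997 (0.919 to 1.08) from 779 Tom+ and 2615 Tom- UMIs. In the Ednrb Paqr6 state, the only 1 of the 5 with high Bmp5, Bmp5 had a ratio of 0.970 (0.720 to 1.28) from 52 Tom+ and 1050 Tom- UMIs. The equal-weight mean of Bmp5 was -0.62, but the other 4 states had between 0 and 8 Tom+ UMIs, and the mean turned to 0.02 with thinned cells and to 0.14 after subtraction of 5% free RNA. Few members passed 1.5 times within a state. In the Dner Kcnn3 state 0 of 4 measured members did, against 2.5% higher and 2.03% lower of 8800 genes. In the Ednrb Paqr6 state 1 of 5 was lower, against 8.22% higher and 9.07% lower of 8821 genes, and this was Sostdc1 with a ratio of 0.399 (0.205 to 0.701) from 12 Tom+ and 590 Tom- UMIs. In the Olfml2a Ackr4 state 1 of 4 was lower, against 3.2% higher and 5.17% lower of 8841 genes, and this was Bmp2 at 12.8 CPM in Tom+ cells, against 26.3 CPM in Tom- cells (ratio 0.487, 0.262 to 0.833). In the Bglap2 Ptgfr state 1 of 5 was lower, against 4.46% higher and 4.27% lower of 8921 genes, and this was Bmp5 with 8 Tom+ and 113 Tom- UMIs and a ratio of 0.575 whose interval (0.242 to 1.17) includes no difference. In the Cd74 Ptger3 state 1 of 3 was higher, against 4.88% higher and 7.83% lower of 8920 genes, and this was Bmp2 with 27 Tom+ and 66 Tom- UMIs and a ratio of 1.54 whose interval (0.946 to 2.44) also includes no difference. Without shared barcodes (10 of 63 Tom+ and 6 of 193 Tom- cells) its levels were 27.6 CPM in Tom+, against 19.3 CPM in Tom-, short of 1.5 times. Gdf10 in the Dner Kcnn3 state had a ratio of 1.34 (1.09 to 1.64), short of 1.5 times. Immediate-early genes, which tissue dissociation can raise, moved with some of these states. Of the 12 listed, 4 of 11 measured were at least 1.5 times lower in Tom+ cells of the Ednrb Paqr6 state, with a median log2 ratio of -0.45, and 4 of 12 in the Bglap2 Ptgfr state, with a median of -0.50. In the Olfml2a Ackr4 state 2 of 12 were higher (median 0.38), and in the Cd74 Ptger3 state 1 was higher and 2 were lower (median 0.21). Their part in these results was not tested.

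Outside the fibroblast-like cells few members passed 1.5 times. In umbrella urothelial-like cells 0 of 3 measured members passed 1.5 times in either direction, where 0.0399% of 7522 genes were higher and 0.386% lower. Bmp2 had a ratio of 0.864 (0.818 to 0.913), Bmp7 of 1.02 (0.923 to 1.12) and Bambi of 1.05 (0.964 to 1.15). In basal or intermediate cells 0 of 3 passed, against 0.263% higher and 0.952% lower of 7984 genes. There Bmp7 had a log2 ratio of -0.09 that moved to -1.25 with cells thinned to 2000 UMIs, past 1.5 times, and Bambi had -0.29 that turned to 0.60 with thinned cells, also past 1.5 times. In mesothelial-like cells 0 of 3 passed, against 1.42% higher and 1.48% lower of 8810 genes. There 63 of the 153 Tom+ cells carried a shared barcode, and Bmp4 had a log2 ratio of 0.01 with them and -0.32 without them. Bambi had -0.42 there and -0.50 without them, and with each cell classed from its markers it was -0.81, past 1.5 times, while at class resolution 0.5 it turned to 0.18. In lymphatic endothelial-like cells 1 of 4 was at least 1.5 times lower, Bmp7 with 3 Tom+ and 17 Tom- UMIs and a ratio of 0.473 (0.089 to 1.63), against 8.32% higher and 11.9% lower of 8176 genes.

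In endothelial-like cells 1 of 3 measured members was at least 1.5 times higher in Tom+, against 2.53% of 8977 genes, and 0 were at least 1.5 times lower, against 9.55%. The 1 was Bmp2, at 15.5 CPM from 23 UMIs in 6 Tom+ cells and 6.15 CPM from 30 UMIs in 25 Tom- cells, a ratio of 2.52 (1.40 to 4.48). Of the 23 Tom+ UMIs, 15 lay in 2 cells of the Esm1 Rgcc cluster. That cluster stood at 39.9 CPM in Tom+ (22.3 to 65.8), against 3.72 CPM in Tom- (1.78 to 6.83). The Selp Lrg1 cluster stood at 7.20 CPM in Tom+ (3.11 to 14.2) from 8 UMIs, against 9.14 CPM in Tom- (5.58 to 14.1). On the log2 scale the class value was 0.41 without the shared barcodes, -0.02 with thinned cells and -0.38 when called doublets were kept. Different clusters hold most of the class in the 2 libraries: Selp Lrg1 with 120 of 166 Tom+ cells and Esm1 Rgcc with 427 of 678 Tom- cells. Basal or intermediate urothelial markers summed to 203 CPM in Tom+, against 105 CPM in Tom- endothelial-like cells, with 3 of 8 and 1 of 8 markers at 0, and umbrella markers to 53.8 and 39.3 CPM, with 4 of 8 and 1 of 8 at 0. Fibroblast markers summed to 183 CPM in Tom+, against 1021 CPM in Tom-, with 0 of 10 at 0 in both, and erythroid markers to 65.9 CPM in Tom+, against 941 CPM in Tom-, with 2 of 7 and 1 of 7 at 0. Their part in the Bmp2 value was not tested. Bmp4 had a ratio of 1.15 (0.925 to 1.42) and Bambi of 0.988 (0.806 to 1.205). For Bambi the log2 ratio was -0.02. Over its 14 alternatives it lay between -1.03 and 0.14, with 1 of them past 1.5 times lower in Tom+.

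The rest of the pathway in fibroblast-like cells was counted from 5 lists, beside 2.11% higher and 2.72% lower of the 9003 genes measured in the class. Of 15 BMP-family ligands 7 were measured, 2 were higher and 2 lower in Tom+. Gdf6, a ligand of joint and eye development, was highest with 17.6 CPM in Tom+, against 6.17 CPM in Tom- (log2 ratio 1.38), and Bmp6, known for its part in iron control, was the other with 76.0 CPM in Tom+, against 44.3 CPM in Tom-, a ratio of 1.72 (1.56 to 1.89). Within the 5 states compared, no measured ligand of the list was at least 1.5 times higher except Bmp2 in the Cd74 Ptger3 state. The log2 ratio of Bmp6 was 0.47 in the Dner Kcnn3 state, 0.37 in the Ednrb Paqr6 state and 0.36 in the Bglap2 Ptgfr state. Gdf6 was a leading gene of a fibroblast-like cluster with 62 Tom+ and 192 Tom- cells. Of 18 antagonists and inhibitors 10 were measured, 0 were higher (2.11% over all genes) and 3 lower (2.72%). Among these were Sostdc1 and Chrdl1 (a chordin-like antagonist), which had 12.8 CPM in Tom+, against 23.3 CPM in Tom-. Chrd, chordin, had the highest log2 ratio of the list at 0.33. Bmp6 and Chrdl1 were named because they were among these counts, after their values were seen.

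Downstream, the receptor and SMAD lists held no gene past 1.5 times. Of 12 receptors and co-receptors found in the files 10 were measured, with 0 higher and 0 lower, from Rgma at 0.39 to Neo1 (neogenin, which binds RGM co-receptors) at -0.57, and a median log2 ratio of 0.00. Of 10 SMAD pathway genes 10 were measured, with 0 higher and 0 lower and a median of -0.04. Of 16 target genes 10 were measured, with 0 higher and 1 lower, Runx2, a bone transcription factor, at 7.39 CPM in Tom+, against 20.6 CPM in Tom-. Id3, the target with the highest level, had 771 CPM in Tom+, against 942 CPM in Tom-. Of the 12 immediate-early genes that tissue dissociation can raise, 12 were measured and 0 passed 1.5 times in either direction, with a median of 0.11. In endothelial-like cells 2 of 12 measured target genes were higher and 2 lower, beside 2.53% higher and 9.55% lower of 8977 genes, from Id4 at 1.33 to Hey1, also a Notch target, at -2.65, with the change of leading cluster named above.

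Over 27 classes and states with at least 30 cells (10 of Tom+ and 17 of Tom-), the gene whose level ran closest to Bmp5 was Cck, a peptide hormone, with r = 0.977 on log2(CPM + 1), followed by Frem1 (0.947) and Notum (0.943). Bmp4 ran closest to Mgp (0.933), matrix Gla protein, a BMP-binding matrix protein, then to Tbx4 (0.928) and Pdgfd (0.923). Gdf10 ran closest to Ackr2 (0.939), a chemokine scavenger, then to Ptx3 and Msc. Sostdc1 ran closest to Itga4 (0.886), Bmp2 to Ociad2 (0.857) and Bmp7 to Tfap2c (0.835). Nog ran closest to Mt3 (0.869) and Grem1 to Calca (0.870), both on few UMIs. Among the members, Bmp5 and Sostdc1 had r = 0.778 and Bmp4 and Bmp5 0.642, while Bmp2 and Gdf10 had -0.48. Gdf10 had 0.07 with Bmp4 and -0.10 with Bmp5. These are descriptions over units that share 2 libraries, 1 animal and, for the states, 1 class, and they carry no p. The unnamed clusters were not among the units. The correlations of Gdf10 and Nog therefore do not cover the Cilp Sfrp4 cluster. It held 55.7% of the Gdf10 UMIs in each library, and 60% of the Nog UMIs in Tom+ and 60.1% in Tom-.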

How the data were processed

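Droplet-based 3′ single-cell RNA sequencing libraries from 1 mouse bladder, 1 Tom+ and 1 Tom-, were analysed. The deposited matrices give unnormalised UMI counts for 31054 features; Cell Ranger 7.0.0 and genome build mm10 come from the submitters' processing notes, and software version 3.0.2 is per the file headers. How barcodes were called as cells is not given in the sources used here; all have at least 500 UMIs. No column of another series was used.

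Cells with at least 1000 UMIs, 500 genes and under 15% mitochondrial UMIs were kept (1893 of 2783 in Tom+ and 10595 of 13551 in Tom-). In each library Scrublet, at 0.8% per 1000 cells, called 10 Tom+ and 690 Tom- doublets, which were left out. The rest were clustered without integration, tdTomato, Cdkn2a and 68 BMP-related genes (2000 variable genes, 30 components, 15 neighbours, Leiden resolution 1; scanpy 1.11.5 and leidenalg 0.10.2 under Python 3.11.15), which gave 27 clusters. Names came from 19 marker lists and needed at least 30 cells, 3 markers each detected in at least 25% of cells, and no more markers of another class than of its own among the 10 leading genes, and a cluster far shallower than its library also needed 1 of its own; 6 clusters stayed unnamed. States come from a second clustering of fibroblast-like cells alone, at resolution 0.5, and rebuilt names may differ from the study's own. UMIs were summed per class and library and scaled to CPM. Sums have exact Poisson, shares exact Clopper-Pearson and ratios exact conditional binomial 95% intervals. PCR and cell-to-cell variation are not covered. Log2 ratios of Tom+ over Tom- have 1 CPM added. Classes needed 50 cells and states 30 cells in each library to be compared. For shares of cells with a UMI, cells were thinned to 2000 UMIs, so 48 Tom+ and 125 Tom- cells of the fibroblast-like class dropped out. The calculation was tested on simulated data. TMM used R 4.3.3 and edgeR 4.0.16.

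The members, gene lists and tests were chosen with earlier results of these data known. The 9 members were always named; of each pathway list the highest and lowest measured gene and the gene with the highest level could be named, and for each member the 3 genes closest to it over classes and states. Some items that these rules select are not reported here. RefSeq promoters matched 4 of the 9 members, of which 3 are printed. Gene positions are from a GRCm38 annotation.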

Additional observations from a re-analysis of the deposited data

Results flagged for a closer look

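Bmp2 stood in opposite directions in 2 classes under the same contrast. The ratio of Tom+ to Tom- was 2.52 in endothelial-like cells and 0.519 in fibroblast-like cells, with counting intervals that do not overlap, and the difference between them was not tested. The endothelial-like value rests on 23 Tom+ UMIs in 6 cells, 22 of them in 5 cells. Its direction was not kept under every setting, since its log2 ratio was 0.41 without shared barcodes, -0.02 with thinned cells and -0.38 with doublets kept. By cluster, Esm1 Rgcc stood at 39.9 CPM in Tom+ from 15 UMIs in 2 cells, against 3.72 CPM in Tom-. Selp Lrg1, with 120 of the 166 Tom+ cells, stood at 7.20 CPM in Tom+, against 9.14 CPM in Tom-, with overlapping intervals. The fibroblast-like value rests on 140 Tom+ UMIs in 86 cells.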

How the results depend on the processing

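For 29 results, 440 alternative values were computed under 20 settings, of which 385 stayed within the reported value's counting interval (for counts, within 1.5 times), 51 moved beyond it and 4 reversed; sign changes of values near 0, such as Bambi's, are not counted as reversals. The reversals were the equal-weight mean of Bmp5 over states, 0.02 (0.0175) with thinned cells and 0.14 after subtraction of 5% free RNA, and Bmp2 in endothelial-like cells, -0.0181 with thinned cells and -0.38 with doublets kept. The number of members at least 1.5 times lower in Tom+ fibroblast-like cells was 3, and 1 with a filter of 50 CPM, which leaves fewer genes measured; with no filter it was 4. The number higher was 0 in every alternative run. The Bmp5 log2 ratio in that class was -2.04 without shared barcodes, -2.03 with BMP genes kept for clustering and -2.16 with thinned cells. The Bmp4 log2 ratio was -0.27 with doublets kept, -0.27 without shared barcodes and -0.27 with BMP genes kept, -0.22 at class resolution 0.5, -0.46 with cells classed by markers and -0.22 without the clusters led by Car3. The equal-weight mean of Bmp4 was 0.13 with cells classed by markers, -0.11 with per-cell CPM, -0.15 with thinned cells, 0.20 with the unnamed fibroblast-scoring clusters counted in and -0.13 without the cell with most UMIs in each library; the last 2 settings were chosen after seeing the data. The cause of these moves was not tested. No paired analysis was possible because each group is 1 library. Some log2 ratios spread widely over their alternatives. That of Gdf10 in fibroblast-like cells was 0.53, lay between 0.20 and 0.58 and moved beyond its counting interval in 7 of 16. That of Nog in fibroblast-like cells was -0.51 and lay between -1.17 and 0.08 over these settings. That of Bmp4 in lymphatic endothelial-like cells was -0.45 and lay between -1.28 and 0.44, and that of Bambi there was 0.40 and lay between 0.04 and 1.14. Depth limits Nog and Grem1, and all Tom+ values in states with few cells.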

Other observations

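The 9 Tom- cells of the Cilp Sfrp4 cluster with at least 5 Nog UMIs were looked at after their values were seen, and no test was run. Their summed profile had 27172 CPM of Ren1, the renin gene of mouse, against 1.15 CPM in the 568 Tom- cells of the cluster without a Nog UMI, and all 9 had a Ren1 UMI. Pnoc, the precursor of nociceptin, stood at 9450 CPM against 1.81 CPM, Calb2, calretinin, at 2385 CPM against 0.49 CPM, and Chrdl2, itself a chordin-like BMP antagonist, at 770 CPM against 0.82 CPM. The median depth was 24136 UMIs in these cells and 10145 UMIs in the others.

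Bmp3, which is not among the 9 genes, a ligand of the same branch as Gdf10, stood in basal or intermediate urothelial-like cells at 97.8 CPM in Tom+, against 102 CPM in Tom-. In fibroblast-like cells it had 70.4 CPM in Tom+, against 91.5 CPM in Tom-, a ratio of 0.770 (0.699 to 0.846).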
